A study of Homo sapiens with 9 samples.

Results

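The genes described here are 30 genes of the Notch signalling pathway. They comprise 4 receptors, 5 ligands, 4 subunits of gamma-secretase, 3 Fringe glycosyltransferases, 4 nuclear cofactors, 6 target genes and 4 regulators. They were chosen by symbol, and all 30 were matched through GENCODE to the 60649 gene identifiers of the count table. Of these, 28 passed the filter on low counts and entered the test over 19674 genes, and the ligand DLL3 and the target gene HEYL did not.

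The cells were OVCAR5, an epithelial ovarian cancer line, carried as stable lines made by lentiviral transduction with puromycin selection. The 9 libraries fall into groups labelled NC, SM2 and SM4, with 3 in each. The labels give SM2 and SM4 as METTL3 knockdown and NC as parental control, and the methods of the study describe NC as a control hairpin. METTL3 is the catalytic subunit of the complex that writes N6-methyladenosine (m6A) on messenger RNA, and the comparisons ask what follows for the transcriptome when it is reduced. Which hairpin SM2 and SM4 each carry is not given in the sources used here, and whether the 3 libraries of a group came from separate cultures is not stated, so the p-values measure only the spread between these libraries. One source field names OVCAR6, OVCAR7 and OVCAR8 for the SM4 libraries, although their cell line is entered as OVCAR5 like that of the others.

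METTL3 itself went against the labels. Its level was 36.2, 34.4 and 36.6 CPM (counts scaled to the library's total after TMM normalization) in the libraries labelled NC, 37.0, 39.8 and 40 CPM in those labelled SM2, and 60.5, 57.5 and 62.4 CPM in those labelled SM4. It was therefore lowest in NC and highest in SM4, with a log2 fold change of 0.75 (SE 0.0539, adjusted p = 2.21e-09) in SM4 against NC and of 0.12 (SE 0.0549, adjusted p = 0.12) in SM2 against NC. METTL3 shares 388 exon bases with TOX4 on the opposite strand, which was at 105 ± 2.66, 100 ± 2.34 and 99.7 ± 2.95 CPM in the same groups (SD, n = 3) and so was not highest in SM4. The names NC, SM2 and SM4 below are the labels as given. Labels may have been exchanged between groups, NC and SM4 among them, and this was not tested here. It is therefore uncertain which group is the control, and no direction below can be read as the effect of less METTL3.

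Notch receptors are single-pass membrane proteins that are activated by ligands of the Jagged and Delta-like families on a neighbouring cell. Ligand binding exposes the receptor to cleavage by an ADAM protease and then by gamma-secretase, which frees the intracellular domain to enter the nucleus. There it joins the DNA-binding protein RBPJ and a Mastermind coactivator and switches on target genes, most of them basic helix-loop-helix repressors of the HES and HEY families. In ovarian carcinoma the pathway is best known for NOTCH3, whose locus is gained in part of high-grade serous tumours.

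The stretches shown next are promoter sequence of the target genes, because the HES and HEY genes are where RBPJ acts and their levels are the usual readout of the pathway. The letters GTGGGAA, an RBPJ-type motif, were searched on both strands (the reverse complement is TTCCCAC) in RefSeq windows that run from 250 bases before to 50 after each start on GRCh38.p14, and 25 of the 30 genes had a window. A match was found in 5 of the 25 (20%), beside 7.62% of all 27305 genes with a window. The 5 were RBPJ and 4 of the 5 target genes with a window. Each stretch is given 5′ to 3′ on the strand of its gene, with the motif in capitals. HES1 lies on the plus strand and its stretch is chr3:194135998-194136117. HES4, on the minus strand, is shown only for the 30 bases at chr1:1000157-1000186, since part of them is annotated as 5′ UTR of 1 transcript. The HEY2 stretch, on the plus strand, is chr6:125749392-125749511, and the HEYL stretch, on the minus strand, is chr1:39639734-39639853.
HES1: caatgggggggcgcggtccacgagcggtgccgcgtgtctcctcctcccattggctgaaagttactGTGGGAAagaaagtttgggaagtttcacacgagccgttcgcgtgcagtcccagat
HES4: gctggggcgagtGTGGGAAagaatgcggag
HEY2: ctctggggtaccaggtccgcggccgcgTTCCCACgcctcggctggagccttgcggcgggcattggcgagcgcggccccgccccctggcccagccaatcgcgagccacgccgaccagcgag
HEYL: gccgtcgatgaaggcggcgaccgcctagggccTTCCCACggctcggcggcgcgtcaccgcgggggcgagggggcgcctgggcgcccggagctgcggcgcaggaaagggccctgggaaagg
The match began 85 bases upstream of the start in HES1, 77 in HES4, 213 in HEY2 and 178 in HEYL, and a further match in HEY2, outside the stretch shown, began 4 bases upstream. NRARP, the remaining target gene with a window, held none, and neither did any window of the 4 receptors, of JAG1, JAG2 and DLL4, or of the 4 gamma-secretase genes. A match is a run of letters and not a measured site, and binding of RBPJ was not measured.

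Depth was high and even, with 44103272 to 63693728 counts per library, so that 1 CPM corresponded to 43.9 to 63.2 counts. Epithelial markers (EPCAM, KRT8, KRT18, KRT19 and CDH1) summed to 9910 to 11800 CPM in every library. The fibroblast list summed to 21.3 to 26.5 CPM, mostly COL1A1, and the endothelial list to 0.853 to 1.48 CPM, with KDR at 0 in every library. The leukocyte list summed to 40.9 to 45 CPM in NC, 58.9 to 62.7 CPM in SM2 and 41 to 44.3 CPM in SM4, nearly all from LYZ and CD14, with PTPRC at 0.0754 CPM at most, and its part in the differences of SM2 was not tested. SM2 replicate 3 stood apart from the other SM2 libraries, since relative to them the fifth of genes with the shortest exon length was higher (median log2 difference 0.111) and the fifth with the longest was lower (-0.106). Members differed in it too, NOTCH2 by a log2 difference of -0.32, MAML3 by -0.32 and HES1 by 0.33. PSEN2 was at 0.36, with 16397 merged exon bases, a longest transcript of 5158 bases and only 67, 50 and 93 counts in SM2. NOTCH4 (9748 merged exon bases, longest transcript 6745) was at 0.01 and NCSTN (11484 and 4936) at -0.05. The part of length in the differences of the members was not tested. This check by length was added after the values were seen. Values without this library are given wherever it decides a call of a member, and for the other pathway genes the counts without it are given.

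Among the 28 tested genes, 6 passed the test in SM2 against NC (21.4%), beside 22.3% of all genes tested. Of these 4 were higher and 2 lower, where 12% and 10.3% of all genes were, and without SM2 replicate 2 the number was 3. In SM4 against NC 7 passed (25%), beside 21.2% of all genes, 4 of them higher and 3 lower, beside 11% and 10.2%. SM4 against SM2 called 9 (32.1%), beside 12.8% of all genes, 4 of them higher and 5 lower, beside 6.04% and 6.76%. Without the adjustment, p was below 0.05 for 9, 12 and 10 of the 28 genes in the 3 comparisons, beside 33%, 31.7% and 25.6% of all genes. The libraries of the groups compared did not overlap for 8, 14 and 9 of them, beside 35.2%, 38.4% and 28.3%. The comparisons against NC share its libraries, and SM4 against SM2 shares the libraries of both. The median log2 fold change of the 28 genes was 0.08, -0.01 and -0.04, and that of all genes was -0.004, -0.001 and 0. Changes were small in size. DLL1 in SM4 against SM2 was the only member to pass the test with at least a 2-fold change, which 2.26%, 2.36% and 0.788% of all genes did.

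**Figure D1:**
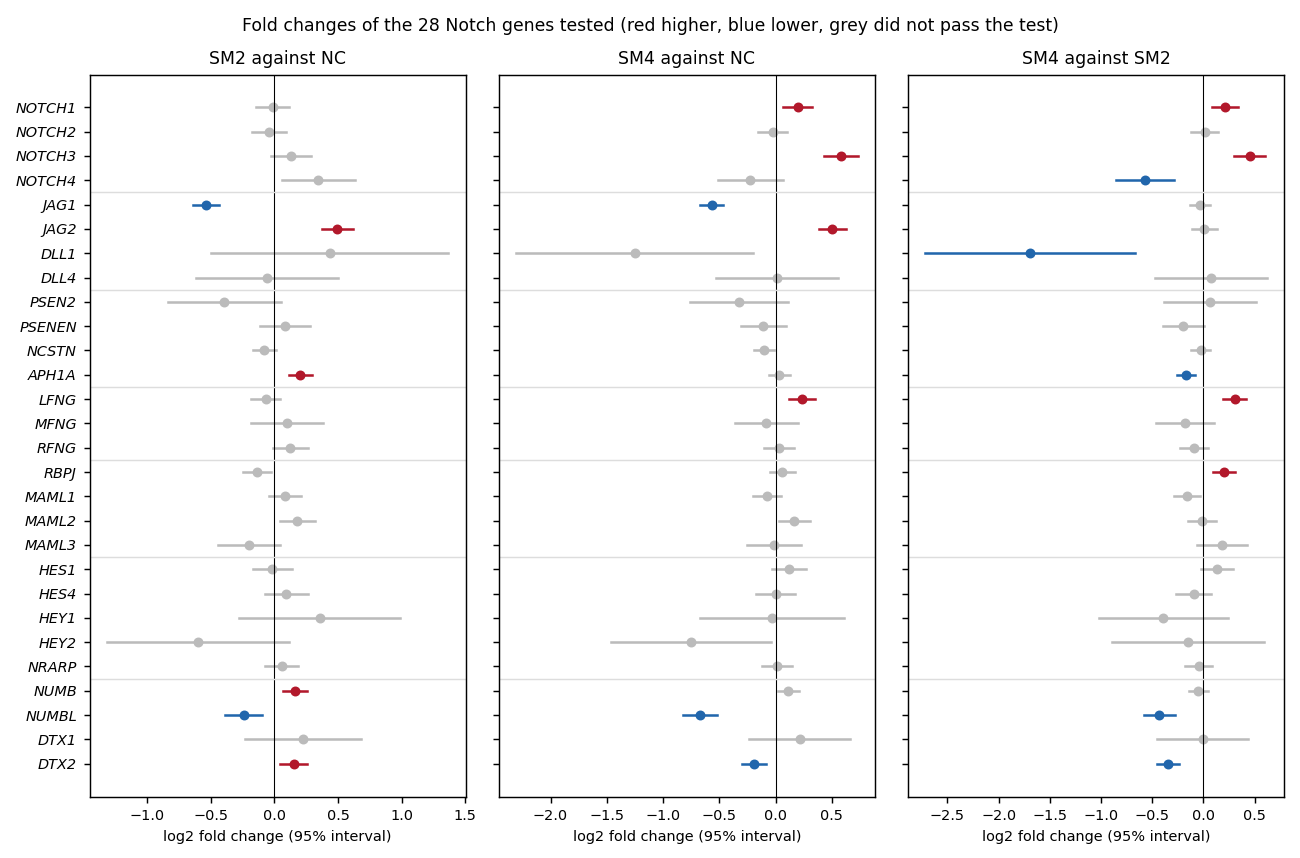
Log2 fold change (x axis) of each of the 28 tested Notch genes (y axis, ordered by role with grey lines between roles) for SM2 and SM4 against NC (left and middle) and for SM4 against SM2 (right), each with its 95% interval from the edgeR fit and its own x range. JAG1 is lower and JAG2 higher in the left and middle panels and neither passes the test in the right one, while NOTCH3 and LFNG are higher and NUMBL and DTX2 lower in SM4 in the middle and right panels.

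The 2 Jagged ligands differed from NC in opposite directions, and by nearly equal amounts in SM2 and SM4. Both comparisons share the NC libraries, so for each gene it was NC that stood apart from the other groups. JAG1, the main Notch ligand of many epithelia (ENSG00000101384.12, GRCh38 chromosome 20, 10637684 to 10673999, minus strand), stood at 77.1, 76.8 and 74.7 CPM in NC, 54.2, 53.4 and 50.1 CPM in SM2 and 50.7, 53.1 and 50.3 CPM in SM4. Every library labelled SM2 or SM4 lay below every NC library. The fall was -0.54 (log2) in SM2 against NC (SE 0.0489, adjusted p = 8.61e-08) and -0.57 in SM4 against NC (SE 0.0487, adjusted p = 2.72e-08), which leaves 0.690 and 0.674 of the NC level. SM4 against SM2 did not pass the test, with a log2 fold change of -0.03 (95% interval -0.14 to 0.07).

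JAG2 (ENSG00000184916.9, chromosome 14, 105140982 to 105168824, minus strand), the other Jagged ligand, was at 27.8, 29.1 and 31.1 CPM in NC, 41.3, 39.9 and 42.9 CPM in SM2 and 40.5, 43.7 and 40.6 CPM in SM4. Here each SM2 and SM4 library lay above all 3 NC libraries. JAG2 rose 1.41-fold in SM2 against NC (log2 0.49, SE 0.0586, adjusted p = 2.8e-06) and 1.42-fold in SM4 against NC (log2 0.50, SE 0.0582, adjusted p = 1.82e-06), and the interval of SM4 against SM2 ran from -0.11 to 0.13 around a log2 fold change of 0.01. In plain CPM JAG1 was above JAG2 in all groups, and by less in SM2 and SM4 than in NC. Which of the pair was higher per kilobase depended on the gene length used. With merged exons JAG1 was at 8.19, 5.65 and 5.52 CPM per kilobase in NC, SM2 and SM4 and JAG2 at 4.59, 6.47 and 6.51, so that JAG1 was the higher in NC alone. With the longest transcript JAG1 was the higher in each group, at 12.8, 8.86 and 8.64 CPM per kilobase beside 5.09, 7.17 and 7.21 for JAG2. The calls of both genes against NC held under all 16 alternatives.

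The Delta-like ligands were at low levels. DLL1 (ENSG00000198719.9, chromosome 6, 170282206 to 170306565, minus strand) had 13, 15 and 17 counts in NC, 10, 17 and 31 in SM2 and 5, 11 and 5 in SM4, or means of 0.287 ± 0.0106, 0.386 ± 0.185 and 0.118 ± 0.0492 CPM (SD, n = 3, as for every ± below). It was lower in SM4 than in SM2 by -1.69 in log2 (SE 0.492, adjusted p = 0.0261), and in SM4 against NC the difference was -1.25 (SE 0.505, adjusted p = 0.0868) with no overlap between the libraries. The call of SM4 against SM2 rested on single libraries, since without SM2 replicate 3 the log2 fold change was -1.25 (adjusted p = 0.182), and it was also lost without SM2 replicate 2, SM4 replicate 1 or SM4 replicate 3. Only 14 alternatives gave a value for it, and 10 of them called it. DESeq2 gave no adjusted p, and the filter at a mean of at least 1 CPM removed the gene. DLL1 shares 370 exon bases with FAM120B on the opposite strand, a gene at 36.4 CPM over the 9 libraries, and a strand setting of the counting is not given in the sources used here, so its few counts are uncertain. DLL4, an endothelial ligand, was at 0.625 to 0.798 CPM in NC, 0.645 to 0.722 in SM2 and 0.680 to 0.789 in SM4, and the ranges overlapped. DLL3, a ligand that acts mainly inside the cell, had 0 to 2 counts per library and was not tested.

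**Figure D2:**
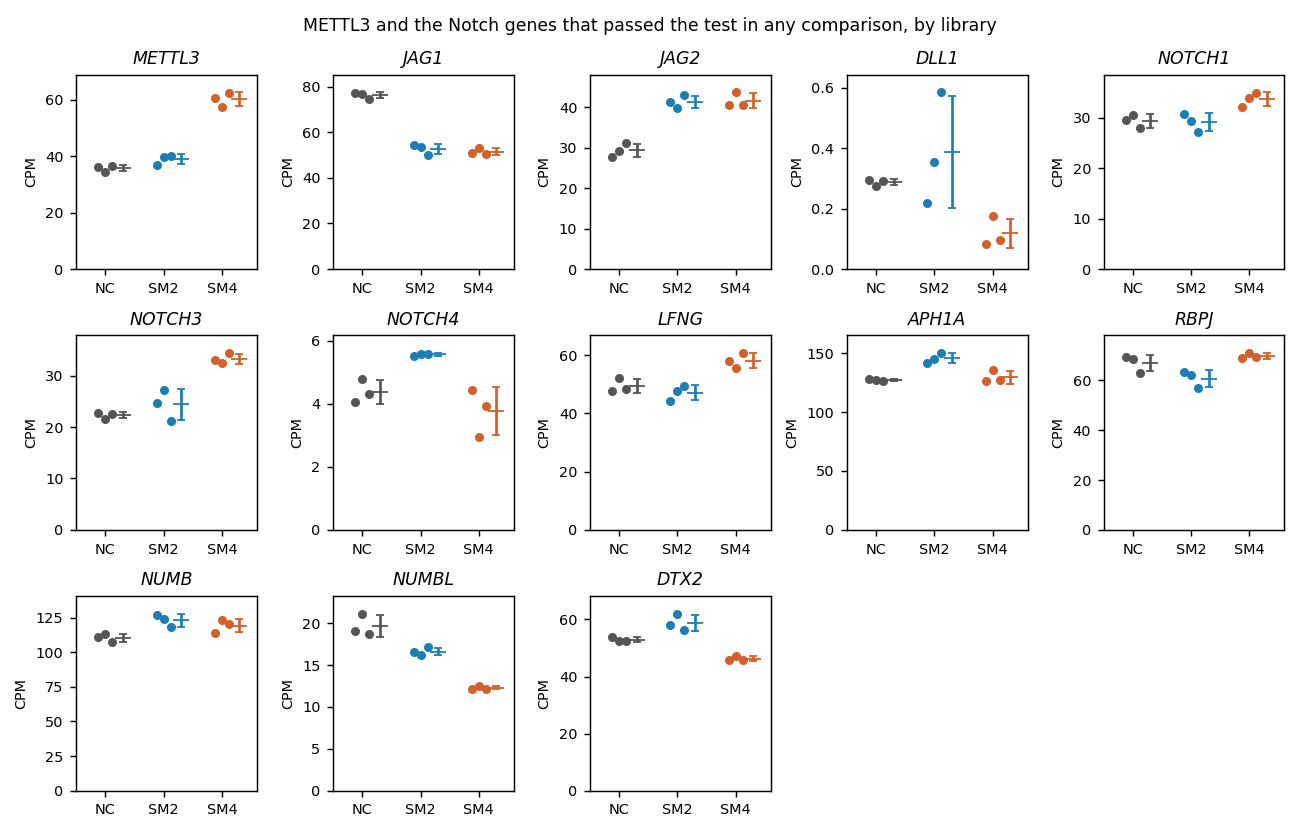
Level in CPM (y axes from 0) of METTL3 and of the 12 Notch genes that passed the test in at least 1 comparison, for the libraries labelled NC, SM2 and SM4 (x axis). Each point is a library, and the bar beside the points is the mean with its SD. METTL3 is highest in SM4, all SM2 and SM4 points of JAG1 lie below NC, and all of JAG2 lie above it.

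Of the receptors, NOTCH3 and NOTCH1 rose in SM4, NOTCH4 was lower in SM4 than in SM2, and NOTCH2 did not pass the test. NOTCH3 (ENSG00000074181.9, chromosome 19, 15159038 to 15200995, minus strand) was at 22.8, 21.6 and 22.5 CPM in NC, 24.7, 27.3 and 21.2 CPM in SM2 and 33.1, 32.5 and 34.4 CPM in SM4. All 3 SM4 libraries lay above all others, whereas SM2 overlapped NC. It rose 1.49-fold in SM4 against NC (log2 0.58, SE 0.0732, adjusted p = 5.57e-06) and was 1.37-fold higher in SM4 than in SM2 (log2 0.45, SE 0.073, adjusted p = 0.000191). SM2 against NC gave a log2 fold change of 0.13 (adjusted p = 0.255), and without SM2 replicate 3 it was 0.22 and passed (adjusted p = 0.0115).

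NOTCH1 (ENSG00000148400.13, chromosome 9, 136494433 to 136546048, minus strand) showed a smaller difference of the same kind, at 29.5, 30.5 and 27.9 CPM in NC, 30.7, 29.3 and 27.2 CPM in SM2 and 32.1, 33.8 and 34.9 CPM in SM4. Its log2 fold change was 0.20 in SM4 against NC (SE 0.0613, adjusted p = 0.0253) and 0.21 against SM2 (SE 0.0615, adjusted p = 0.0273). The first of these calls was lost when NC replicate 1, NC replicate 3, SM4 replicate 2 or SM4 replicate 3 was left out (adjusted p up to 0.13), and the second in the absence of SM2 replicate 2, SM2 replicate 3, SM4 replicate 2 or SM4 replicate 3 (adjusted p up to 0.129). Without SM2 replicate 3, the log2 fold change of SM4 against SM2 was 0.16 (adjusted p = 0.0805). In SM2 against NC NOTCH1 had a log2 fold change of -0.01, with an interval of -0.14 to 0.12.

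NOTCH4, a receptor known from endothelium (ENSG00000204301.6, chromosome 6, 32194843 to 32224067, minus strand), was the only receptor lower in SM4 than in SM2. The libraries held 4.04, 4.78 and 4.30 CPM in NC, 5.51, 5.59 and 5.58 CPM in SM2 and 4.42, 2.93 and 3.92 CPM in SM4. SM2 lay above both other groups without overlap. The log2 fold change was -0.57 in SM4 against SM2 (SE 0.137, adjusted p = 0.00755), 0.35 in SM2 against NC (SE 0.136, adjusted p = 0.0781) and -0.22 in SM4 against NC (adjusted p = 0.294). SM2 against NC passed with only the 6 libraries compared (adjusted p = 0.045) and without SM4 replicate 2 (adjusted p = 0.039). NOTCH4 shares 98 exon bases with GPSM3 on the same strand. GPSM3, at 14 CPM over the 9 libraries, was higher in SM4 than in SM2 (log2 0.42, adjusted p = 0.0091). The part of this overlap was not tested.

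NOTCH2 (ENSG00000134250.20, chromosome 1, 119911553 to 120100779, minus strand) was the receptor with the most counts and did not pass the test in any comparison, at 164, 158 and 157 CPM in NC, 163, 169 and 133 CPM in SM2 and 162, 154 and 153 CPM in SM4. The 95% intervals of its log2 fold changes against NC were -0.17 to 0.09 in SM2 and -0.16 to 0.10 in SM4, and that of SM4 against SM2 was -0.12 to 0.15. Its near-identical partial copies drew few counts, with NOTCH2NLC the highest at a mean of 0.293 CPM. How reads that match both NOTCH2 and a copy were counted was not tested, so these low counts do not show how cleanly NOTCH2 was measured. Per kilobase of merged exons, NOTCH2 stood at 9.38 CPM over the 9 libraries, NOTCH3 at 2.83, NOTCH1 at 2.45 and NOTCH4 at 0.468. With the longest transcript NOTCH2 was at 13.8, NOTCH1 at 3.11, NOTCH3 at 3.07 and NOTCH4 at 0.677, so the order of NOTCH1 and NOTCH3 depended on the length used.

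Of the gamma-secretase subunits, only APH1A passed the test. APH1A, a scaffold subunit (ENSG00000117362.13, chromosome 1, 150265399 to 150269580, minus strand), was at 128, 127 and 126 CPM in NC, 142, 145 and 150 CPM in SM2 and 126, 136 and 127 CPM in SM4. The SM2 libraries were all above the rest. The rise was 1.15-fold in SM2 against NC (log2 0.20, SE 0.0436, adjusted p = 0.00179) and held under all 16 alternatives. In SM4 against SM2 it was lower, with log2 -0.17 (SE 0.0435, adjusted p = 0.0123), a call that was lost without SM4 replicate 1 (adjusted p = 0.106) or SM4 replicate 3.

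NCSTN, the subunit that receives the substrate, was at 126 ± 1.58 CPM in NC, 120 ± 2.26 in SM2 and 117 ± 3.9 in SM4, and both of the latter lay below NC without overlap. The log2 fold changes against NC were -0.08 (adjusted p = 0.206) and -0.11 (adjusted p = 0.0871), and neither passed, though SM4 against NC did so without SM2 replicate 3 (-0.10, adjusted p = 0.0419) and with only the 6 libraries compared (-0.11, adjusted p = 0.0198). PSENEN, the smallest subunit, ranged from 9.83 to 13.6 CPM over the 9 libraries. PSEN2, a catalytic subunit, had 1.04 to 2.08 CPM and its groups overlapped. Neither passed the test in any comparison. Both are uncertain, since PSEN2 shares 38.7% of its exon bases on the same strand with ENSG00000288674, a gene at 0.102 CPM, and PSENEN shares 21% with a same-strand gene and 31.3% with an opposite-strand gene, which were at 0 and 0.0321 CPM.

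Fringe enzymes add N-acetylglucosamine to fucose on the receptors and so alter which ligands activate them. LFNG (ENSG00000106003.13, chromosome 7, 2512529 to 2529177, plus strand) was at 47.6, 52.0 and 48.5 CPM in NC, 44.2, 47.6 and 49.3 CPM in SM2 and 57.9, 55.7 and 60.7 CPM in SM4. All SM4 libraries exceeded all others, and NC and SM2 overlapped. It rose in SM4 by 0.24 on the log2 scale against NC (SE 0.0555, adjusted p = 0.00389) and by 0.31 against SM2 (SE 0.0557, adjusted p = 0.000716), and both calls held under all 16 alternatives. MFNG, at 3.46 to 5.05 CPM, and RFNG, at 35.4 to 45.1 CPM, did not pass in any comparison. RFNG shares 835 exon bases, 21.6% of its exon length, with GPS1 on the opposite strand, and GPS1 was at 192 CPM, so the level of RFNG is uncertain.

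In the nucleus, RBPJ, the DNA-binding protein of the pathway (ENSG00000168214.21, chromosome 4, 26163455 to 26435131, plus strand), was at 69.2, 68.4 and 63.1 CPM in NC, 63.3, 62.0 and 56.7 CPM in SM2 and 69.0, 70.9 and 69.2 CPM in SM4. SM4 lay above SM2 without overlap, and NC overlapped both. The log2 fold change was 0.20 in SM4 against SM2 (SE 0.0526, adjusted p = 0.0139, lost without SM4 replicate 2 at 0.0643), -0.14 in SM2 against NC (adjusted p = 0.0616) and 0.06 in SM4 against NC (adjusted p = 0.496). SM2 against NC passed under 3 of 16 alternatives. These were the replicate block (adjusted p = 0.0337) and the fits without NC replicate 3 (0.0328) or SM2 replicate 1 (0.0346).

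The Mastermind coactivators did not pass the test as first fitted, and MAML1 and MAML2 did so under some alternatives. MAML1 was at 95.2 ± 2.71 CPM in NC, 101 ± 10.7 in SM2 and 90.1 ± 3.9 in SM4, MAML2 at 57.5 ± 3.12, 65.0 ± 7.54 and 64.3 ± 0.757 CPM, and MAML3 at 6.98 ± 0.0814, 6.09 ± 0.92 and 6.91 ± 0.67 CPM. In SM2 replicate 3 all 3 genes were below the other SM2 libraries. Without that library MAML1 was higher in SM2 than in NC (log2 0.17, adjusted p = 0.00683) and lower in SM4 than in SM2 (-0.25, adjusted p = 0.000282), and MAML2 was higher than in NC in both SM2 (0.28, adjusted p = 0.000106) and SM4 (0.17, adjusted p = 0.00504). With all 9 libraries, MAML2 passed in SM2 against NC without a filter on low counts (adjusted p = 0.0143), with a mean of at least 1 CPM (0.0444), with upper-quartile factors (0.0406) and with a replicate block (0.0238), and in SM4 against NC without the filter (0.0291) and with the block (0.034). MAML1 passed in SM4 against SM2 without the filter (0.0349).

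None of the 5 tested target genes passed the edgeR test in any comparison. Of their 15 tests, 1 had an unadjusted p below 0.05 (HEY2 in SM4 against NC), and DESeq2, which gave an adjusted p for 14, called 0. HES1, the best-known Notch target (ENSG00000114315.4, chromosome 3, 194136148 to 194138732, plus strand), was at 45.3, 43.5 and 46.2 CPM in NC, 39.2, 42.5 and 51.5 CPM in SM2 and 50.9, 47.3 and 48.0 CPM in SM4. The SM4 libraries lay just above NC, and SM2 spanned both. With all libraries the log2 fold change was -0.02 in SM2 against NC (95% interval -0.17 to 0.13), 0.12 in SM4 against NC (-0.04 to 0.27) and 0.13 in SM4 against SM2 (-0.02 to 0.29). Without SM2 replicate 3, SM4 against SM2 passed at 0.26 (adjusted p = 0.0014).

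NRARP, a target that feeds back on the intracellular domain of Notch (ENSG00000198435.4, chromosome 9, 137299631 to 137302271, minus strand), differed least of the targets. It was at 23.8, 25.6 and 23.1 CPM in NC, 25.9, 25.7 and 23.9 CPM in SM2 and 23.8, 24.4 and 25 CPM in SM4. All groups overlapped, and the 95% intervals of its 3 log2 fold changes lay between -0.18 and 0.19. HES4 was at 22, 23.2 and 22.1 CPM in NC, 21.4, 22.4 and 27.9 CPM in SM2 and 22.9, 23.2 and 21.2 CPM in SM4, with SM2 replicate 3 the highest. HEY1 had 29 to 47 counts per library and HEY2 17 to 42, which left wide intervals. For HEY2, at 0.699 ± 0.177 CPM in NC, 0.457 ± 0.0552 in SM2 and 0.414 ± 0.132 in SM4, the log2 fold change was -0.60 in SM2 (-1.32 to 0.11) and -0.75 in SM4 (-1.46 to -0.04, adjusted p = 0.134). HEYL had 0 to 6 counts per library and was not tested.

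**Figure D3:**
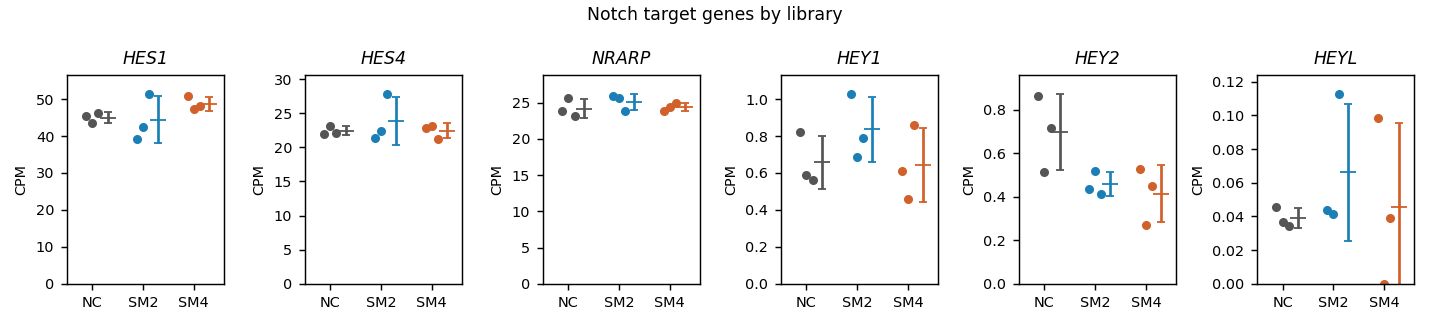
Level in CPM (y axes from 0) of the 6 Notch target genes in each library labelled NC, SM2 or SM4, with the mean and SD beside the points. NRARP lies within a narrow range in all groups, and HES1 and HES4 do so within NC and within SM4. In SM2 HES1 runs from 39.2 to 51.5 CPM and HES4 from 21.4 to 27.9 CPM, with replicate 3 the highest point. HEYL is at 0.113 CPM at most.

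Among the regulators, NUMBL and DTX2 changed most. NUMBL encodes the NUMB-like adaptor, an inhibitor of Notch (ENSG00000105245.9, chromosome 19, 40665905 to 40690972, minus strand), and had 19.1, 21.1 and 18.7 CPM in NC, 16.5, 16.2 and 17.1 CPM in SM2 and 12.2, 12.5 and 12.2 CPM in SM4. The 3 groups formed separate steps with no overlap. It fell by 0.67 on the log2 scale in SM4 against NC (SE 0.0713, adjusted p = 5.58e-07) and by 0.43 in SM4 against SM2 (SE 0.0721, adjusted p = 0.000285), and both calls held under all 16 alternatives. The smaller fall in SM2 against NC (log2 -0.24, SE 0.0707, adjusted p = 0.0165) was lost without NC replicate 2 (adjusted p = 0.119) or SM2 replicate 2.

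NUMB, the related inhibitor that marks Notch for endocytosis (ENSG00000133961.21, chromosome 14, 73275107 to 73458617, minus strand), moved the other way in SM2. Its libraries were at 111, 113 and 107 CPM in NC, 127, 124 and 118 CPM in SM2 and 114, 123 and 120 CPM in SM4. Both SM2 and SM4 lay above NC without overlap. The log2 fold change was 0.16 in SM2 against NC (SE 0.0461, adjusted p = 0.014) and 0.11 in SM4 against NC (SE 0.046, adjusted p = 0.0881), and the second passed under 4 of 16 alternatives, among them the fit without SM2 replicate 3 (0.12, adjusted p = 0.0254). The call in SM2 was lost when any 1 of NC replicates 1 and 3 and SM2 replicates 1 and 2 was left out (adjusted p up to 0.0762).

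DTX2, a Deltex E3 ubiquitin ligase (ENSG00000091073.20, chromosome 7, 76461676 to 76505995, plus strand), was at 53.9, 52.3 and 52.4 CPM in NC, 58.0, 61.9 and 56.3 CPM in SM2 and 45.8, 47.3 and 45.8 CPM in SM4. SM2 lay above NC and SM4 below it, each without overlap. It was 0.788 of its SM2 level in SM4 (log2 -0.34, SE 0.0502, adjusted p = 6.33e-05), a call that held under all 16 alternatives, and -0.19 on the log2 scale below NC (SE 0.0502, adjusted p = 0.00847, and 0.0513 without SM4 replicate 1). The rise in SM2 against NC (log2 0.15, SE 0.0501, adjusted p = 0.0337) was lost under 8 of 16 alternatives, 6 of them fits without 1 library (NC replicate 1, 2 or 3, SM2 replicate 2, SM4 replicate 1 or 3). DTX2P1, an annotated pseudogene copy looked up after the values were seen, had a mean of 0.766 CPM. DTX1, another Deltex gene, was at 1.01 to 1.79 CPM and did not pass.

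**Figure D4:**
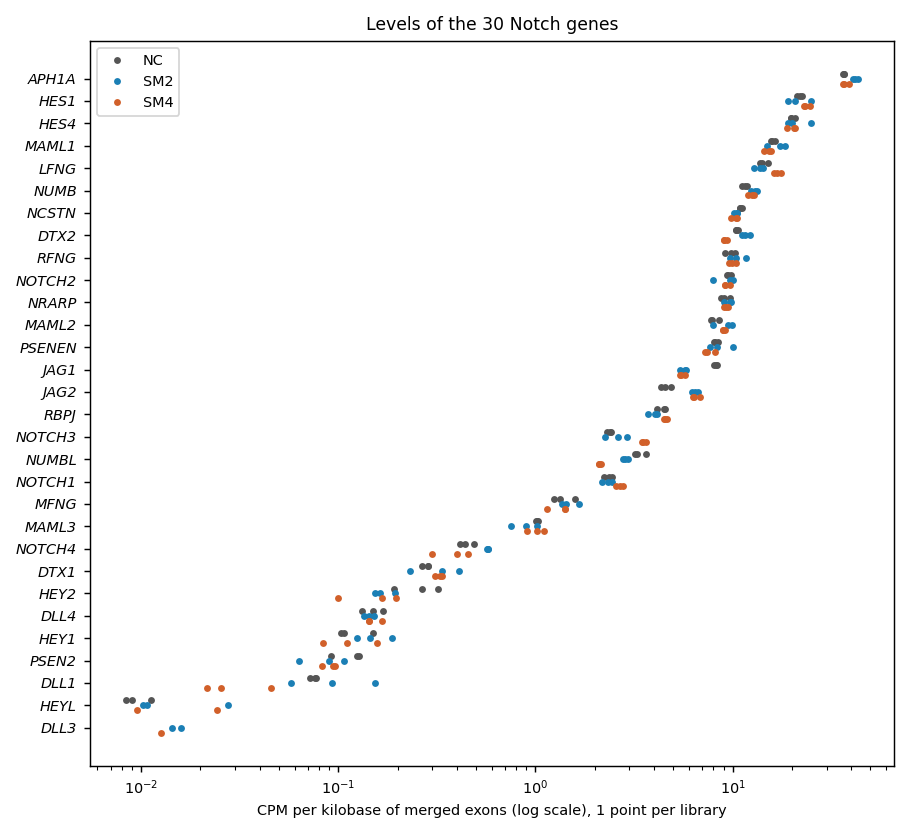
Level of the 30 Notch genes in CPM per kilobase of merged exons (x axis, log scale), 1 point per library, coloured by the labels NC, SM2 and SM4 and ordered by the mean over the 9 libraries (y axis). Libraries with no count (6 for DLL3 and 1 for HEYL) have no point. APH1A is at the top and 20 genes have a mean of at least 1 CPM per kilobase, and the points of JAG1 are at higher levels than those of JAG2 in NC and at lower ones in the other groups, an order that holds for merged exons and not for the longest transcript.

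On the scale of CPM per kilobase of merged exons, which allows genes to be compared, the mean levels of the 30 genes ran from 38.6 for APH1A to 0.00476 for DLL3. The target genes HES1 at 22.4 and HES4 at 20.5 came next in order and overlapped each other. MAML1 at 16, LFNG at 15 and NUMB at 12.3 followed, and 20 genes had at least 1 CPM per kilobase. NCSTN at 10.6, DTX2 at 10.4, RFNG at 10.1, NOTCH2 at 9.38 and NRARP at 9.3 each overlapped its neighbours in that order. At the low end were NOTCH4 at 0.468, DTX1 at 0.31, HEY2 at 0.195, DLL4 at 0.148, HEY1 at 0.13, PSEN2 at 0.0973 and DLL1 at 0.069. With the length of the longest transcript in place of merged exons, the number of genes with at least 1 CPM per kilobase was again 20, but the order within them changed. NCSTN moved from place 7 to 3 (24.6 CPM per kilobase), RBPJ from 16 to 11 (11.4), HES4 from 3 to 5 (22) and MAML1 from 4 to 8 (16.6), and PSEN2 was at 0.309. APH1A and HES1 kept the first places.

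The other genes of the pathway were read from a list of 38, of which 35 were tested. Against NC, 10 passed in SM2 (28.6%, beside 22.3% of all genes) and 16 in SM4 (45.7%, beside 21.2%), and 8 passed in SM4 against SM2 (22.9%, beside 12.8%). Of these 8, 13 and 5 were higher (22.9%, 37.1% and 14.3% of the 35), beside 12%, 11% and 6.04% of all genes. Without NC replicate 2, SM4 against NC called 9. The median log2 fold change of the 35 was 0.004, 0.10 and 0.05 in that order. FURIN, the convertase that cuts Notch receptors on their way to the surface, was at 137 ± 2.94 CPM in NC, 181 ± 5.91 in SM2 and 230 ± 14.1 in SM4, and rose by 0.39 (log2) in SM2 against NC (adjusted p = 3.41e-06), by 0.74 in SM4 against NC (adjusted p = 3.81e-10) and by 0.35 in SM4 against SM2 (adjusted p = 2.61e-05). NEURL1B, a Neuralized-type E3 ligase for ligands, was at 3.53 ± 0.508, 6.26 ± 0.652 and 6.73 ± 0.271 CPM, a rise of 0.82 (adjusted p = 5.05e-05) in SM2 and 0.93 (adjusted p = 9.23e-06) in SM4 against NC.

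DLK2, a Delta-like protein without the ligand's receptor-binding DSL domain, was at 0.813 ± 0.108 CPM in NC, 2.19 ± 0.259 in SM2 and 1.26 ± 0.139 in SM4. It rose by 1.42 (log2) in SM2 against NC (SE 0.205, adjusted p = 3.14e-05) and was lower in SM4 than in SM2 by -0.79 (SE 0.194, adjusted p = 0.00886). Its rise of 0.63 in SM4 against NC (adjusted p = 0.0375) was lost under 8 of 16 alternatives, 5 of them fits that left out NC replicate 1, NC replicate 2 or any SM4 library. DTX3L, a Deltex-related ligase, was higher in SM4 alone of the groups, at 83.1 ± 2.36 CPM beside 62 ± 2.48 in NC and 61.6 ± 3.8 in SM2 (log2 0.43 against either, adjusted p = 3.99e-06 and 6.71e-06). Among the falls, NEDD4, a ubiquitin ligase, went from 85.7 ± 3.36 CPM in NC to 69.3 ± 1.32 in SM4 (log2 -0.31, adjusted p = 0.000614). HES7, the oscillating repressor of the somite clock, was at 1.21 ± 0.186 CPM in NC, 1.56 ± 0.184 in SM2 and 0.725 ± 0.0947 in SM4, lower in SM4 than in SM2 by -1.11 (adjusted p = 0.00183) and than in NC by -0.74 (adjusted p = 0.0248, lost when NC replicate 1, NC replicate 2, SM4 replicate 2 or SM4 replicate 3 was left out). In SM2 the largest falls were EOGT, a glycosyltransferase acting on Notch, by -0.25 (adjusted p = 0.0122, lost without NC replicate 1 or SM2 replicate 2), and CTBP2, a corepressor, by -0.17 (adjusted p = 0.00712, and 0.0531 without NC replicate 1).

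As a property of sequence that played no part in choosing the genes, the letters GGACT, the most frequent form of the m6A consensus, were counted on the sense strand of the Ensembl canonical transcript. The 28 tested members had a median of 1.17 matches per kilobase, and the 13785 tested genes with a coding canonical transcript had 0.935. JAG1 held 4 (0.673 per kilobase) and JAG2 3 (0.52 per kilobase), both below that median. NOTCH3 had 9 (1.04 per kilobase), NUMBL 5 (1.4 per kilobase) and APH1A 3 (1.73 per kilobase). DTX2, with 8 in 2641 bases (3.03 per kilobase), had the highest density among the 28. Methylation of these transcripts was not measured here, and the letters mark no methylated base.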

How the data were processed

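RNA-seq of 9 libraries of OVCAR5 was used, 3 each labelled NC, SM2 and SM4. According to the labels the authors prepared poly(A) libraries, and their processing notes name fastp, HISAT2, featureCounts (Subread) and hg38/GRCh38. Versions, annotation and strand setting are not given in the sources used here. The deposited values were raw counts per gene with no normalization.

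Genes were named through GENCODE v44. Counts were normalized by TMM (trimmed mean of M values), filtered with filterByExpr and tested in edgeR 4.0.16 (R 4.3.3) by the quasi-likelihood F test, with 1 model over all 9 libraries and group as the term. Two-sided p-values were adjusted by Benjamini-Hochberg over 19674 genes, and genes with an adjusted p below 0.05 were called. Intervals are 95% intervals of the fit. The script was tested on simulated counts. The alternatives were other scaling factors and filters, DESeq2 1.42.0, the 6 compared libraries alone, a replicate block, a threshold of 0.01, and leaving out each library.

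Depth was 44103272 to 63693728 counts per library. The members and lists were chosen with earlier results of these data known. All 30 members were named. Of the other pathway genes, those named were the 2 largest called rises and 2 largest called falls per comparison with a mean of at least 1 CPM. Of the listed marker genes, 1 is not reported here.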

Additional observations from a re-analysis of the deposited data

Results flagged for a closer look

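In 9 of the 28 tested genes the libraries labelled SM2 and SM4, which the labels give as the same knockdown, differed from each other in the edgeR test, beside 12.8% of all genes. As log2 fold changes of SM4 against SM2, NOTCH1 had 0.21, NOTCH3 0.45, LFNG 0.31 and RBPJ 0.20, and NOTCH4 had -0.57, DLL1 -1.69, APH1A -0.17, NUMBL -0.43 and DTX2 -0.34. Which group is the control is uncertain, so these need not be differences between 2 knockdowns. METTL3 differed in the same comparison by 0.63, and its part in these values was not tested. For DTX2 the changes against NC were of opposite sign, 0.15 in SM2 and -0.19 in SM4. For NUMBL they were of 1 sign and unequal size, -0.24 and -0.67.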

How the results depend on the processing

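Depth limited the low members: DLL1, DLL3, HEYL, HEY1 and HEY2 had at most 47 counts in any library. The calls of JAG1, JAG2, NOTCH3 and LFNG made with all libraries held under all 16 alternatives. Scaling moved the median of all genes to at most 0.017 on the log2 scale. At an adjusted p below 0.01, 3 members remained called in SM2 against NC and 5 in SM4 against SM2. Leaving out each library gave 3 to 9 members in SM2 against NC (3 without SM2 replicate 2, 9 without SM2 replicate 3), 6 to 10 in SM4 against NC and 6 to 9 in SM4 against SM2. It gave 9 to 19 other pathway genes in SM4 against NC (9 without NC replicate 2), and 1574 to 2748 genes in all in SM4 against SM2 (1574 without SM4 replicate 1). The deviations of same-numbered libraries correlated at -0.082 to 0.123, and those of differently numbered libraries at -0.139 to 0.163. Whether libraries with the same number were handled together was not tested. With the replicate block 8, 8 and 9 members were called, adding RBPJ and MAML2 in SM2 against NC and MAML2 in SM4 against NC.

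The sign turned only in results that did not pass the test. With upper-quartile factors, NOTCH1 was at 0.001 and DTX3L at 0.005 in SM2 against NC, and MAML3 at 0.003 in SM4 against NC. HES4 was at -0.004 in SM4 against NC with only the 6 libraries compared, and DTX1 at 0.008 in SM4 against SM2 with the replicate block. Leaving out each library turned the sign, in SM2 against NC, of NOTCH1 (-0.054 to 0.036), NOTCH2 (-0.108 to 0.061), DLL4 (-0.149 to 0.019), PSENEN (-0.033 to 0.16), HES1 (-0.137 to 0.062), HES4 (-0.031 to 0.167), DTX3L (-0.043 to 0.046) and NEDD4 (-0.128 to 0.01). In SM4 against NC it did so for DLL4 (-0.075 to 0.096), APH1A (0 to 0.056), MFNG (-0.149 to 0.03), RFNG (-0.012 to 0.069), MAML3 (-0.084 to 0.063), HES4 (-0.024 to 0.039), HEY1 (-0.291 to 0.161) and NRARP (-0.021 to 0.054), and in SM4 against SM2 for NOTCH2 (-0.085 to 0.082), JAG2 (-0.029 to 0.035), PSEN2 (-0.112 to 0.251), NCSTN (-0.048 to 0.003), MAML2 (-0.108 to 0.05), HES4 (-0.167 to 0.035), HEY2 (-0.362 to 0.096), DTX1 (-0.199 to 0.2) and CTBP2 (-0.004 to 0.04). The cause was not tested in any of these.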
